A study of Mus musculus with 18 samples.

Results

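The proteasome subunit genes examined here were the protein-coding genes whose symbols begin with Psma, Psmb, Psmc or Psmd followed by a digit. The rule took 39 of the 25957 genes in the count table: 18 genes of the Psma and Psmb families, which encode the core particle, 7 Psmc genes and 14 Psmd genes. It used symbols only, not measured values. It also took 4 genes whose products are not part of the finished particle. These were Psmc3ip, which shares a name but encodes a partner of meiotic recombination enzymes, and Psmd5, Psmd9 and Psmd10, which encode chaperones for assembly of the base.

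RNA was measured by BRB-seq, a bulk method that barcodes each sample's cDNA before pooling and reads mainly the 3′ ends of poly(A) RNA, in C2C12, a mouse myoblast cell line kept in medium with 20% fetal bovine serum. There were 18 libraries in 6 groups of 3, numbered as lots 1 to 3. Control cells were lysed on the plate and scraped. After PBS washes, trypsin (0.25%, 200 µL, 37 °C) was left on 3 groups, which differ in its time: 30 s, 3 min and 30 min. The low trypsin group lost its trypsin at once and stayed at 37 °C for a further 3 min. The cold-active protease group was shaken in 200 µL of enzyme at 4 °C for 5 min. Trypsin is a serine protease used to detach adherent cells. No source used here says whether lots were separate cultures, and the p-values therefore speak only of the spread among these libraries, which may be technical.

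The proteasome is the main protease of the cytosol and nucleus for proteins tagged with ubiquitin. Its core particle is a barrel of stacked rings, with Psma products in the outer rings, which gate the entrance, and Psmb products in the inner rings, which hold the proteolytic sites. A regulatory particle caps the barrel. Its base holds a ring of Psmc ATPases that unfold and push in the substrate, and its lid, built of Psmd products, removes the ubiquitin. In muscle this pathway is known for the breakdown of contractile proteins during wasting.

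Library totals ran from 1490869 to 2480690 counts, and 10075 genes passed the filter on low counts. With 3 counts as the floor, the lowest level that can be told from 0 was 1.21 to 2.01 CPM (counts scaled to library size), for counting error only. The myoblast markers Myod1, Myf5, Des, Cdh15 and Vim were present in every library, while Pax7 had 0 to 4 counts. Of the 7 listed markers of other cell types found in the table, Krt8 reached 7 counts, Cd68 reached 11 and the rest 3 at most. Of the 5 tested myoblast markers, Myf5 rose by 0.71 at 30 s, 0.79 at 30 min and 0.39 under low trypsin, and Vim fell by 0.12 at 30 min. Of 6 markers of differentiating muscle 4 were tested, Myog, Mymk, Myh3 and Actc1, and none was called. Their median changes were -0.36 at 30 s, -0.13 at 3 min, -0.28 at 30 min, -0.59 under low trypsin and -0.12 under the cold-active protease, with 4, 3, 3, 4 and 3 of them below 0. At an unadjusted edgeR p under 0.05 there were 1, 0, 0, 2 and 0, and DESeq2 called none. The part of these changes in the results below was not tested. Levels below are TMM-scaled CPM, listed by lot. A gene is called when its Benjamini-Hochberg adjusted p in edgeR's quasi-likelihood F test, fitted and adjusted over all 10075 genes, is under 0.05, and each change is given on the log2 scale ± its standard error (SE). These are bulk samples, so fewer cells of a type and less RNA per cell cannot be told apart.

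Of the 39 genes, 36 passed the filter on low counts. The other three were Psmb8 and Psmb9, inducible catalytic subunits of the immunoproteasome, and Psmb11, the thymus-specific subunit. Their counts summed over all 18 libraries were 1 for Psmb8, 6 for Psmb9 and 1 for Psmb11, with at most 2 counts in any library. The third inducible subunit, Psmb10, was measurable at 18.7 to 33.8 CPM and was not called in any comparison with control. Among interferon-response genes, which accompany the immunoproteasome, Tap1 and Ifit1 had 0 to 3 counts per library. Irf1 had 50 to 108 counts.

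Most subunit mRNAs kept levels close to control under every protocol. Of the 36 tested genes, 11 were called in at least 1 of the 5 comparisons with control and 25 in none. At 30 s of trypsin, 6 genes were called (16.7% of the 36, against 6.94% of all tested genes), 1 higher (3.24% of all genes were called higher) and 5 lower (3.7%). Called genes numbered 3 at 3 min (8.33% against 3.96%), 1 higher (1.01%) and 2 lower (2.95%). At 30 min there were 7 (19.4% against 4.68%), 1 higher (2.07%) and 6 lower (2.61%). Low trypsin gave 1 call, 2.78% against 5.19%, which was higher (3.3% of all genes were called higher and 1.9% lower). The cold-active protease gave 1 call, 2.78% against 0.665%, which was lower (0.199% higher and 0.467% lower over all genes). The counts at 30 s and 30 min were above the background share, and a single call, as under low trypsin, cannot be set apart from it. Among the 24 tested genes without a near-identical copy or an overlapping gene, the shares were 8.33% at 30 s and 16.7% at 30 min. The first of these is near the 6.94% of all tested genes.

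The library makeup affected these counts. The count at 3 min dropped to 1 without control lot 1 or control lot 3, and to 0 without 3 min lot 2. At 30 min it was 4 without control lot 1 or control lot 2, and 3 without control lot 3, 30 min lot 1 or 30 min lot 2. The single call under low trypsin was lost without control lot 3, low trypsin lot 1 or low trypsin lot 2. The one under the cold-active protease was lost without control lot 1, control lot 2 or cold-active protease lot 3.

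As a group the genes lay slightly below control, as did the genes of the CCT chaperonin, a complex set beside them below. The median log2 change over the 36 genes was -0.05 at 30 s, -0.05 at 3 min, -0.11 at 30 min, -0.11 under low trypsin and -0.06 under the cold-active protease. The median over all tested genes was within 0.01 of 0 in each of these comparisons. Without control lot 2, the median of the 36 genes at 30 s was -0.015. In the same order of treatments, 23, 26, 29, 29 and 26 of the 36 genes lay below 0, beside 49.6%, 47.9%, 49.1%, 50.6% and 50.0% of all tested genes. The 5 comparisons share their 3 control libraries, so these directions are not independent of each other.

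**Figure D1:**
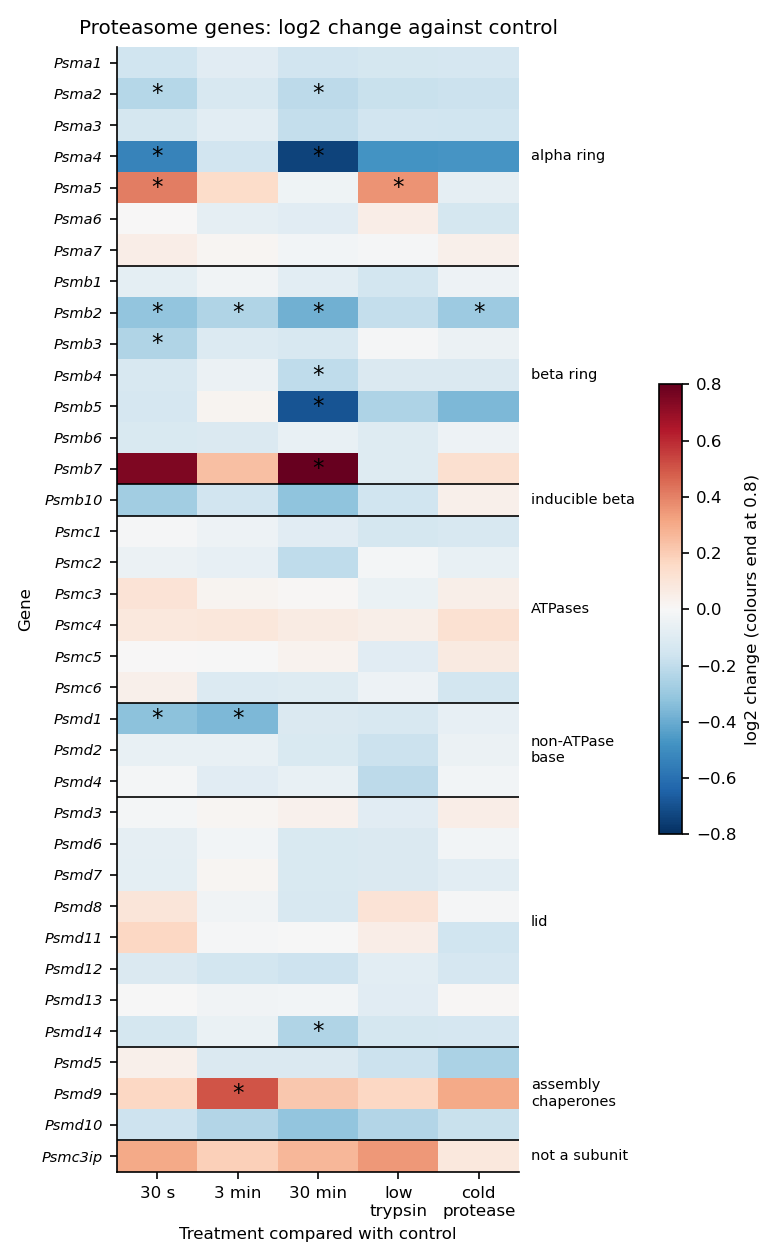
Log2 change against control for the 36 tested genes (rows, grouped by role) under the 5 treatments (columns), with colour from blue (lower) to red (higher) and an asterisk for edgeR adjusted p under 0.05. Asterisks lie mostly in the core rows, where 5 genes were called at 30 s and 6 at 30 min, no Psmc row has one, and Psmb7, at 1.33, lies beyond the end of the colour scale.

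Calls by subcomplex are given beside the shares of all tested genes called, 6.94%, 3.96%, 4.68%, 5.19% and 0.665% in the order of treatments used above. In the core, 15 genes were tested, and 5 were called at 30 s, 1 at 3 min, 6 at 30 min, 1 under low trypsin and 1 under the cold-active protease. Core medians were -0.14, -0.08, -0.15, -0.14 and -0.12 in that order, with 11, 11, 14, 13 and 12 of the 15 genes below 0. At an unadjusted edgeR p under 0.05 there were 8, 2, 7, 7 and 7 core genes. Over all 10075 genes there were 1600, 1289, 1648, 1567 and 885. The 7 Psmc genes had medians of 0.04, -0.01, 0.01, -0.04 and 0.05, and none was called by edgeR or DESeq2 in any comparison with control. At an unadjusted edgeR p under 0.05 there were 0, 0, 1, 1 and 1 Psmc genes. The 14 Psmd genes gave 1, 2, 1, 0 and 0 edgeR calls, with 2, 2, 4, 2 and 3 genes at an unadjusted p under 0.05 and 0 DESeq2 calls under low trypsin and the cold-active protease. The Psmd counts, and the single core calls, are too few to be set apart from those shares. Psmd medians were -0.04, -0.04, -0.12, -0.12 and -0.05. The difference between subcomplexes was not tested.

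Summed counts were also compared between whole libraries, first as a share of all counts without TMM scaling. The 39 genes took 0.883%, 0.890% and 0.881% of the counts in the control libraries and 0.819%, 0.850% and 0.849% at 30 min. Every 30 min library thus lay below every control library, with group means of 0.839% ± 0.017 and 0.885% ± 0.0044 (SD, n = 3). The low trypsin libraries (0.853%, 0.835% and 0.849%) and the cold-active protease libraries (0.860%, 0.841% and 0.857%) also lay below all 3 controls. At 30 s and 3 min the share lay between 0.879% and 0.895%, overlapping the controls. That overlap depended on the scaling. With TMM-scaled totals the share was 0.892% to 0.914% in control, 0.867% to 0.872% at 30 s and 0.849% to 0.890% at 3 min, so these treated libraries, too, lay below all controls. The 30 s mean was 0.886% against 0.885% in control before scaling and 0.870% against 0.901% after it.

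At 30 s the core and Psmc shares differed from control in opposite directions. The core share was 0.397%, 0.398% and 0.394% in control and 0.384%, 0.380% and 0.383% at 30 s, lower in all 3 libraries. Over the same libraries the Psmc share went the other way, from 0.179%, 0.177% and 0.175% to 0.189%, 0.189% and 0.190%. The groups did not overlap in either family, and the Psmd shares of 0.311%, 0.320% and 0.312% overlapped those of control, 0.307%, 0.315% and 0.313%. With TMM-scaled totals the core share was 0.401% to 0.409% in control and 0.372% to 0.379% at 30 s, and the Psmc share 0.178% to 0.182% and 0.185% to 0.187%, again without overlap. These are sums dominated by the most abundant members and carry no test.

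**Figure D2:**
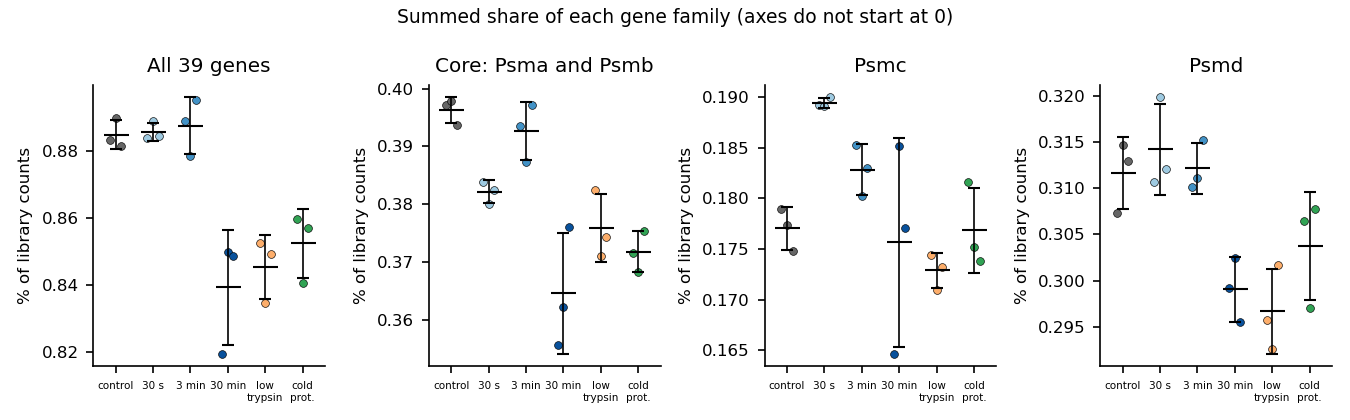
Percent of each library's counts taken by all 39 genes and by the core, Psmc and Psmd families, with points for libraries, bars for the mean and SD of 3, and axes that do not start at 0. The core share is lower than in control in all 3 libraries at 30 s, where the Psmc share is higher.

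Annotated mRNA length differs between the families. In other coding genes, mRNAs of 1200 nt or less had the lowest median change at 30 s, 3 min and 30 min and under low trypsin. This was not so under the cold-active protease. Under low trypsin their median was -0.051, beside -0.037 and 0.0073 in the longer classes, and 12.8% were called. The core genes had a median annotated length of 1165 nt (766 to 2911), the Psmc genes 1591 nt and the Psmd genes 1946.5 nt. Among other coding genes of 1200 nt or less, the median log2 change was -0.15 at 30 s, -0.16 at 3 min and -0.08 at 30 min, and 30.0%, 23.9% and 13.6% were called. The 9 proteasome genes of that length had medians of -0.13, -0.07 and -0.13, with 3, 1 and 5 called. When the trend on length was removed from each library, the core median was -0.08 at 30 s, 0.03 at 3 min and -0.10 at 30 min, so its sign changed at 3 min. The core calls were then 3 (2 higher, 1 lower), 0 and 5 (1 higher, 4 lower). Before removal they were 1 higher and 4 lower at 30 s, and the gene gained was Psma7, named after its value was seen (0.19, edgeR adjusted p = 0.0291). Over all 36 genes, removal gave 2 higher and 2 lower at 30 s, and moved the median at 3 min from -0.05 to -0.021. Under low trypsin and the cold-active protease, removing the trend left core medians of -0.11 and -0.10.

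**Figure D3:**
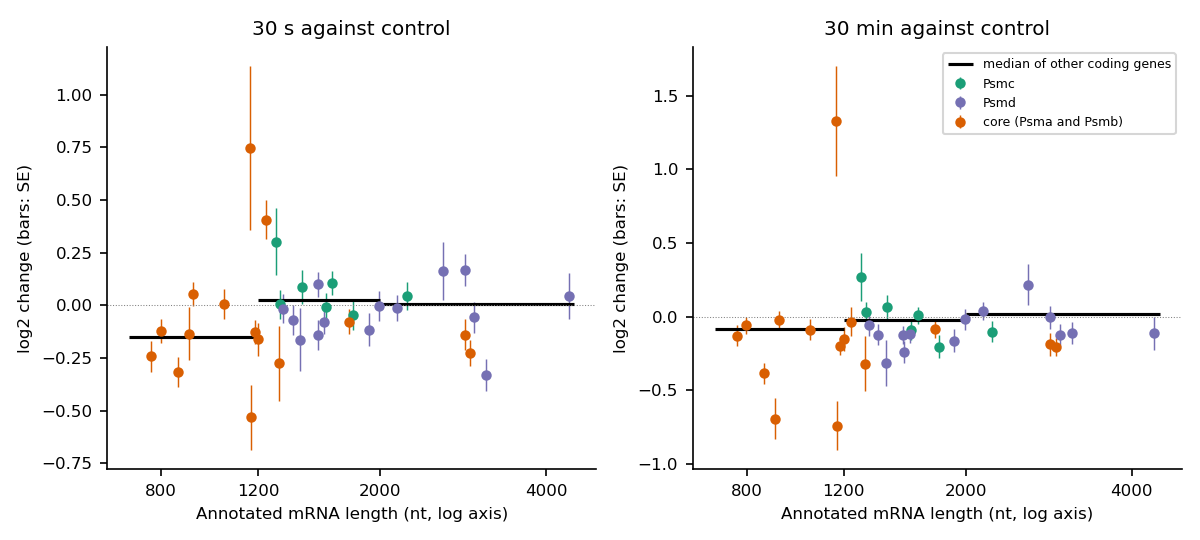
Log2 change against control, with SE bars, by annotated mRNA length (log axis) at 30 s and at 30 min for the 36 tested genes, coloured by family. Black lines give the median of the other coding genes in 3 length classes, lowest for the shortest class, at -0.15 and -0.08.

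The upstream sequences of 4 genes are shown because they stand for the patterns described below: Psmb5, called lower at 30 min, Psma5, the member called higher in 2 protocols, and Psmd2 and Psmd11, regulatory particle genes called in no comparison with control. Sequences come from RefSeq on GRCm38.p6 and cover positions -250 to -1 before the start, ending earlier where an annotated exon begins. They lie at chr14:54618023-54618245 for Psmb5 (minus strand, to position -28), chr3:108256676-108256877 for Psma5 (plus strand, to position -49), chr16:20651402-20651651 for Psmd2 (plus) and chr11:80428365-80428614 for Psmd11 (plus). Capitals mark TGACNNNGC, the core of the antioxidant response element to which Nfe2l1 and Nfe2l2 bind, in Psmb5, and CCGGAAG, a core of ETS factor sites, read on the other strand as CTTCCGG, in Psmd2 and Psmd11. Psma5 has no capitals.
Psmb5: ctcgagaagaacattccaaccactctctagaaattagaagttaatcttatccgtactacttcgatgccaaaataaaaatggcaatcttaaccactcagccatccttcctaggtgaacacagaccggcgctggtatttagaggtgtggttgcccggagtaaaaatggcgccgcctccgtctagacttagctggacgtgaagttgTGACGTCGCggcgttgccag
Psma5: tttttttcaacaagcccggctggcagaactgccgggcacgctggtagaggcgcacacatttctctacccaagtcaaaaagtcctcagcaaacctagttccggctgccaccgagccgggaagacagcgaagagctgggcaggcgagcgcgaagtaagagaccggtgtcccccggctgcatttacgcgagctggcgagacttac
Psmd2: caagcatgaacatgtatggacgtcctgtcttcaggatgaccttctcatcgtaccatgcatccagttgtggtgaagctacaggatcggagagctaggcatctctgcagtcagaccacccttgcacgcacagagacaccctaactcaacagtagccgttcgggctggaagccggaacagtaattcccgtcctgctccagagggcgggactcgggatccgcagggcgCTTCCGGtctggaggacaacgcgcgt
Psmd11: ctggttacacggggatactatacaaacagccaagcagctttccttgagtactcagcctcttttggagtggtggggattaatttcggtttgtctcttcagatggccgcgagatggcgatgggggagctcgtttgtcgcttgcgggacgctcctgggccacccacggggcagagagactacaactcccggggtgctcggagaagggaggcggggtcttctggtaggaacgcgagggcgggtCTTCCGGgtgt

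The 4 motifs were searched on both strands of the 250 bases upstream. RefSeq windows matched 33 of the 39 genes, with 35 windows in all. CCGGAAG occurred in 11 of the 35 windows (31.4%), beside 6.9% of all 32851 windows. Its 10 genes were Psma6, Psmc1, Psmc2, Psmc6, Psmd2, Psmd4, Psmd6, Psmd11, Psmd12 and Psmc3ip. TGACNNNGC occurred in 5 windows (14.3% against 10.2%), those of Psmb5, Psmb6, Psmc6, Psmd9 and Psmd12. CCAAT occurred in 14 (40.0% against 33.8%) and the GC box GGGCGG in 18 (51.4% against 32.7%). Of the 9 genes that had a window and were called against control, 0 held CCGGAAG, 2 TGACNNNGC, 3 CCAAT and 4 GGGCGG. A match is a description of the letters and says nothing of binding.

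Among the 7 alpha ring genes, Psma4 had the lowest fitted change. Psma4 stood at 51.3, 44.4 and 43.4 CPM in control, 33.9, 28.2 and 33.2 at 30 s, and 40.0, 50.8 and 32.2 at 3 min. It stood at 30.2, 27.8 and 24.6 at 30 min, 31.9, 32.5 and 34.6 under low trypsin, and 36.9, 30.5 and 32.1 under the cold-active protease. All libraries of the last 3 groups and of the 30 s group lay below all controls, and the 3 min libraries were scattered across both ranges. Psma4 fell by 0.53 ± 0.15 (SE) at 30 s (edgeR adjusted p = 0.0202) and by 0.74 ± 0.16 at 30 min (edgeR adjusted p = 0.00221). Its changes of -0.48 and -0.47 under low trypsin and the cold-active protease did not pass (edgeR adjusted p = 0.055 and 0.21). Psma4 has a processed pseudogene, Gm6542, that matches it over 783 bases at 96.8% identity and had 8 counts over all libraries. With pseudogene counts added, the calls at 30 s and 30 min were kept. Whether reads of Psma4 were assigned to the copy was not tested. The call at 30 s was lost without control lot 1 (edgeR adjusted p = 0.108) or 30 s lot 2 (0.124), in DESeq2 (0.0579) and with the length trend removed (0.0508), while that at 30 min was kept in all 6 omissions. From 3 min to 30 min Psma4 fell by 0.59 ± 0.17 (edgeR adjusted p = 0.0323). Without 3 min lot 2, the library at 50.8 CPM, that difference was -0.39 (edgeR adjusted p = 0.382), and it was also lost without 3 min lot 1 (0.0709), 30 min lot 2 (0.0906) or 30 min lot 3 (0.158), in DESeq2 (0.0766), without the filter (0.0644) and in a fit of only these groups (0.0637).

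Psma5 moved in the other direction. Its levels were 135, 139.7 and 122 CPM in control, 170.3, 177 and 178 at 30 s, and 175, 175 and 158 under low trypsin. All libraries of those treated groups exceeded all controls. At 3 min (153, 133 and 153) and under the cold-active protease (132, 126 and 118) Psma5 overlapped control, and at 30 min it spread from 104 to 158, the control range lying inside. Psma5 rose by 0.41 ± 0.09 at 30 s (edgeR adjusted p = 0.00162) and by 0.36 ± 0.09 under low trypsin (edgeR adjusted p = 0.0108). The first was kept in all 6 omissions of a library. The second was lost without control lot 3 (edgeR adjusted p = 0.127), low trypsin lot 1 (0.0575) or low trypsin lot 2 (0.0631). Over all 6 groups Psma5 had the smallest p of the 36 genes (edgeR F test, adjusted p = 2.62e-05). Psma5 has processed pseudogenes, Gm8394, which matches it over 952 bases at 98.6% identity, and Gm12989, over 734 bases at 97.5%. Their counts summed over all libraries were 22 and 9. With pseudogene counts added, the Psma5 calls at 30 s and under low trypsin were kept. Whether reads of Psma5 were assigned to these copies was not tested.

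Psma2 was the remaining alpha ring call. It stood at 426, 409 and 412 CPM in control, 351, 363 and 351 at 30 s, and 325, 372 and 381 at 30 min, so both treated groups lay wholly below control. Psma2 fell by 0.23 ± 0.06 at 30 s (edgeR adjusted p = 0.0119) and by 0.21 ± 0.06 at 30 min (0.0412). The call at 30 min was lost without control lot 1, 2 or 3 or without 30 min lot 1 or 2 (edgeR adjusted p of 0.0501 to 0.287), and in a fit of only these groups (0.0845). In the other groups Psma2 lay between 357 and 406 CPM, also under every control, and was not called. The alpha ring genes Psma1, Psma3, Psma6 and Psma7 were not called against control, with changes of -0.19 to 0.05.

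In the beta ring, Psmb5 carries the chymotrypsin-like site, the target of the inhibitor bortezomib. Its levels were 59.7, 62.0 and 63.6 CPM in control and 56.0, 58.9 and 54.1 at 30 s. They were 54.2, 66.1 and 69.0 at 3 min, then 35.2, 43.0 and 35.9 at 30 min. Under low trypsin Psmb5 stood at 47.8, 47.7 and 60.7, and under the cold-active protease at 44.8, 49.8 and 50.5. The 30 min libraries were the lowest of all 18, below every library of every other group. Psmb5 fell by 0.69 ± 0.14 at 30 min against control (edgeR adjusted p = 0.000599) and by 0.72 ± 0.14 at 30 min against 3 min (edgeR adjusted p = 0.000331). Both calls were kept in all 6 omissions of a library. Psmb5 has a processed pseudogene, Gm3375, that matches it over 796 bases at 98.9% identity, and with the pseudogene's counts added the change at 30 min was -0.61 (edgeR adjusted p = 0.00161). In the other 4 comparisons with control Psmb5 was not called, with changes of -0.36 to 0.02.

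Psmb2, a beta ring subunit without a proteolytic site, was called in 4 of the 5 comparisons with control, more than any other gene of the 36. It stood at 352, 360.5 and 324 CPM in control, 272, 266 and 294 at 30 s, and 289, 285 and 305 at 3 min. It was 232, 285 and 274 at 30 min, 311, 308 and 289 under low trypsin, and 296, 294 and 252 under the cold-active protease. Every treated library was below every control library. Psmb2 fell by 0.32 ± 0.07 at 30 s (edgeR adjusted p = 0.001), by 0.24 ± 0.07 at 3 min (0.0398), by 0.39 ± 0.07 at 30 min (0.00017) and by 0.29 ± 0.07 under the cold-active protease (0.0206). Under low trypsin its change of -0.19 did not pass (edgeR adjusted p = 0.11). Psmb2 mRNA is short, at 859 nt, and with the length trend removed its changes were -0.16 at 30 s (edgeR adjusted p = 0.191) and -0.05 at 3 min (0.887), while at 30 min it stayed called at -0.31 (0.00281). The 3 min call was also lost without control lot 1 (edgeR adjusted p = 0.111), control lot 2 (0.222), 3 min lot 1 (0.124) or 3 min lot 2 (0.161), and with upper-quartile scaling (0.0503). The call under the cold-active protease was lost without control lot 1 (0.0815), control lot 2 (0.192) or cold-active protease lot 3 (0.277).

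**Figure D4:**
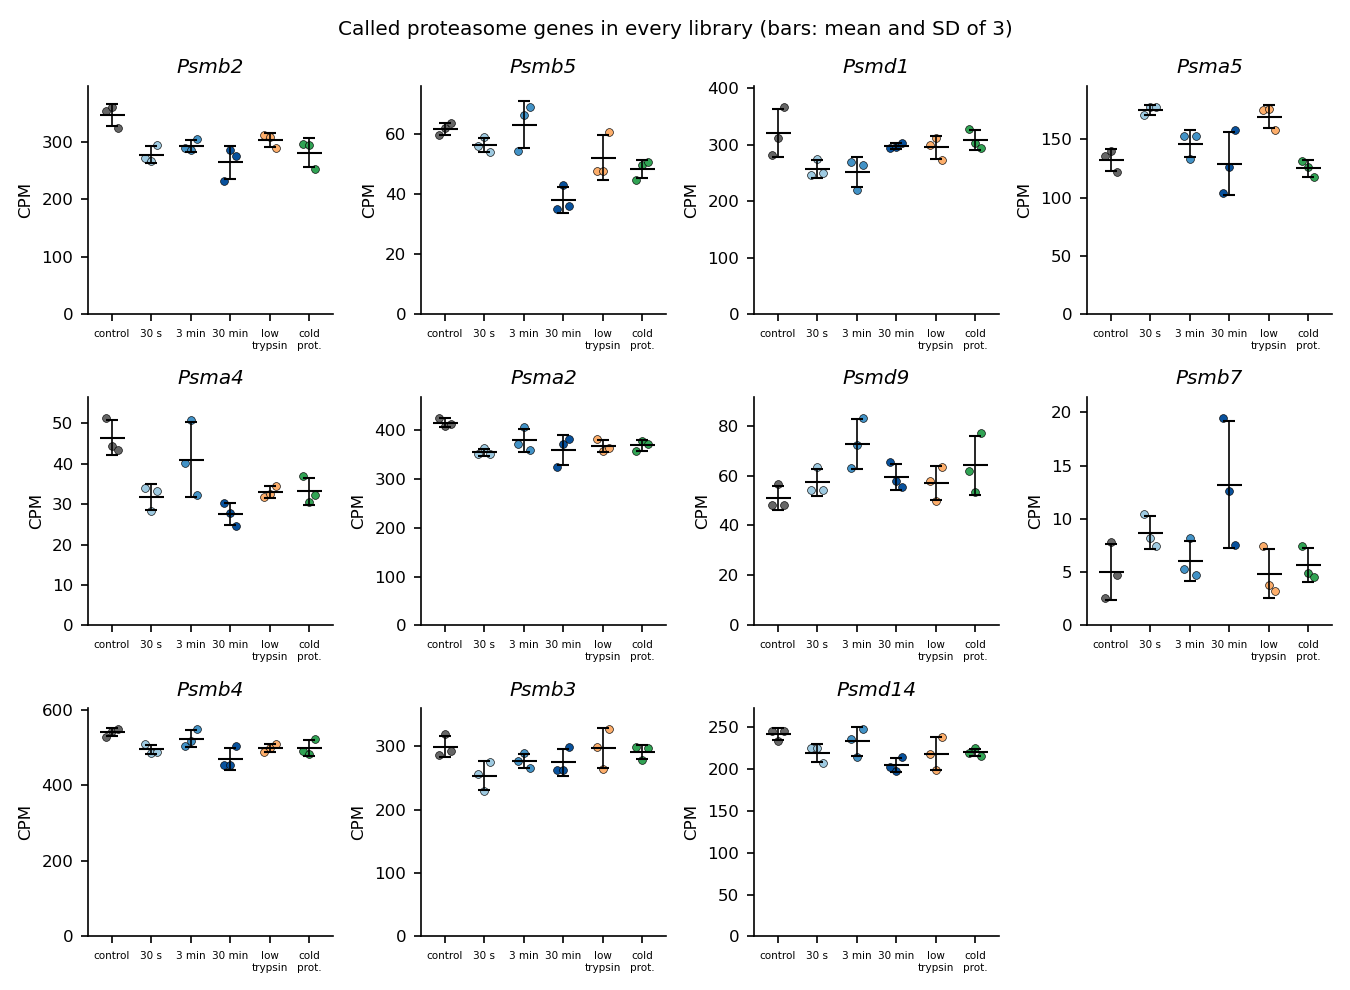
TMM-scaled CPM in all 18 libraries for the 11 genes called in at least 1 comparison with control, with points for libraries and bars for the mean and SD of 3. Psmb2 is lower than control in every treated library, Psmb5 is lowest at 30 min (35.2 to 43.0 CPM), and Psma5 is higher at 30 s and under low trypsin.

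Psmb3 and Psmb4 are structural beta ring subunits called in 1 comparison each. Psmb3 stood at 287, 319 and 293 CPM in control and 256, 230.0 and 275 at 30 s, with no overlap, and fell by 0.24 ± 0.07 (edgeR adjusted p = 0.0278). The call was lost without control lot 2 (edgeR adjusted p = 0.223), control lot 3 (0.052), 30 s lot 1 (0.0585) or 30 s lot 2 (0.235), and with the length trend removed (0.775). Psmb4 stood at 528, 542 and 549 CPM in control and 454, 453 and 503 at 30 min, with no overlap, and fell by 0.20 ± 0.06 (edgeR adjusted p = 0.0255). That call was lost without control lot 2 (edgeR adjusted p = 0.0768), control lot 3 (0.0966), 30 min lot 1 (0.106) or 30 min lot 2 (0.128), with the length trend removed (0.119) and in a fit of only these groups (0.0629).

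A pseudogene copy of Psmb3, Gm4950, which matches it over 615 bases at 97.1% identity, went up in the libraries where Psmb3 was lower. Gm4950 had 31, 31 and 33 counts at 30 s, against 2, 1 and 2 in control and 0 to 9 in the other 12 libraries. Psmb3 itself had 589, 449 and 514 counts at 30 s and 447, 653 and 621 in control. With the counts of its pseudogene copies added, the change of Psmb3 at 30 s was -0.16 (edgeR adjusted p = 0.255), and it was no longer called. Whether reads of Psmb3 were assigned to the copy was not tested.

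**Figure D5:**
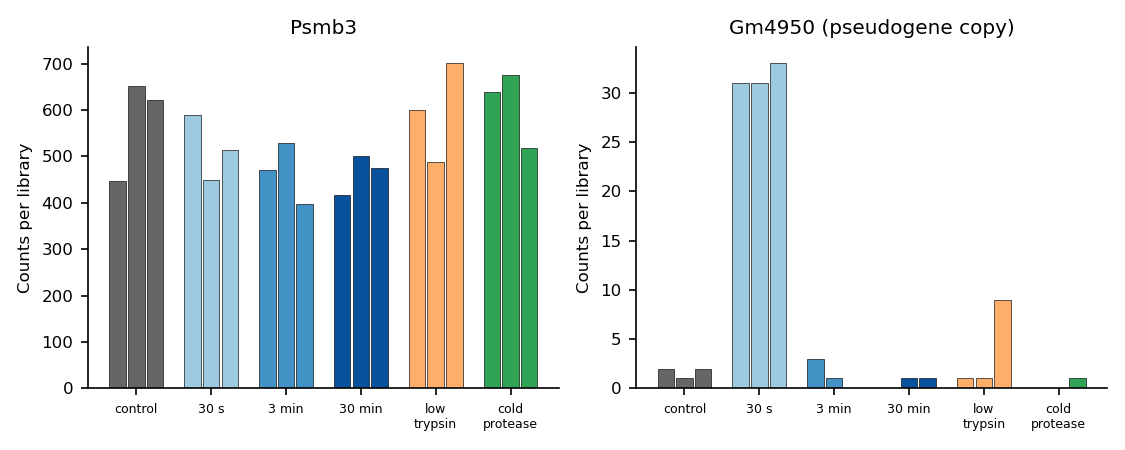
Counts per library for Psmb3 and for its pseudogene copy Gm4950, with 1 bar per library. Gm4950 has 31 to 33 counts in the 30 s libraries and at most 9 in any other library, while Psmb3 has 397 to 701.

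Psmb7, which carries the trypsin-like site, was the only proteasome gene called higher at 30 min, on few counts. Its counts were 4, 16 and 10 in control and 31, 24 and 12 at 30 min, or 2.57, 7.82 and 4.71 CPM against 19.5, 12.6 and 7.56. The ranges overlapped. Psmb7 rose by 1.33 ± 0.37 (edgeR adjusted p = 0.0238). The call was lost in DESeq2 (adjusted p = 0.0578) and without control lot 1 (edgeR adjusted p = 0.133), control lot 3 (0.102), 30 min lot 1 (0.236) or 30 min lot 2 (0.0585). A stretch of 255 bases of its mRNA is also part of Nek6 on the opposite strand, and no source used here states the strand setting of the counting, so reads within that stretch cannot be assigned to either gene with certainty. Psmb1 and Psmb6, the latter with the caspase-like site, were called nowhere and changed by -0.15 to -0.03.

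Among the 6 ATPase genes of the base, Psmc1 to Psmc6, fitted changes against control ran from -0.20 to 0.12. None was called by edgeR or DESeq2 in any comparison with control, with 0, 0, 1, 0 and 1 at an unadjusted edgeR p under 0.05. Psmc3, the most counted of them, stood at 518 to 545 CPM in control and 509 to 581 elsewhere. Psmc2 at 30 min (-0.20) was the lowest value of this ring. Psmc3ip, which is not a subunit, had changes of 0.09 to 0.34 and was not called.

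In the non-ATPase part of the base, Psmd1 encodes a large scaffold that helps to dock substrates. It stood at 282, 312 and 367 CPM in control, 245, 275 and 249 at 30 s, and 269.7, 220.2 and 265 at 3 min. At 30 min it was 294, 296 and 303, under low trypsin 299.9, 311 and 273, and under the cold-active protease 327, 303 and 293. The 30 s and 3 min libraries lay below all controls, and the other groups overlapped control. Psmd1 fell by 0.33 ± 0.08 at 30 s (edgeR adjusted p = 0.0018) and by 0.36 ± 0.08 at 3 min (0.00125). Control lot 3, the highest library, weighed on both: without it the changes were -0.22 (edgeR adjusted p = 0.128) and -0.25 (0.107). The 3 min call was also lost without 3 min lot 2 (0.0635). Psmd1 was higher under the cold-active protease than at 3 min by 0.30 ± 0.08 (edgeR adjusted p = 0.0133). That call was lost without 3 min lot 2 (0.212 on the log2 scale, edgeR adjusted p = 0.26) or cold-active protease lot 1 (0.139). Psmd2, the other large scaffold, and Psmd4, a ubiquitin receptor, were called nowhere, with changes of -0.21 to -0.02.

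Of the 8 lid genes, only Psmd14 was called against control. Its product is the metalloprotease that cuts ubiquitin off the substrate. Psmd14 stood at 246, 233 and 246 CPM in control and 202, 198 and 214 at 30 min, without overlap, and fell by 0.24 ± 0.07 (edgeR adjusted p = 0.0475). The call was lost in DESeq2 (adjusted p = 0.0833), with the length trend removed (edgeR adjusted p = 0.0914), without the filter (0.0574), in a fit of only these groups (0.0651), and without control lot 1, 2 or 3 or 30 min lot 1 or 2 (0.0708 to 0.18). The other lid genes changed by -0.17 to 0.17.

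Psmd8 and Psmd11, which encode structural lid subunits, are named after their values were seen, since they were called only by the F test over all 6 groups (edgeR adjusted p = 0.0339 and 0.0385). Psmd8 was at 360.2, 396 and 384 CPM at 30 s, 389, 387 and 372 under low trypsin, and 317, 337 and 318 at 30 min. Control libraries spanned the gap between these groups, at 329.9, 353 and 377. Psmd11 was at 239.8, 246 and 258 at 30 s and 202, 189 and 202 under the cold-active protease. Its control libraries, at 248, 227 and 190.5, overlapped both of these groups. In all, that F test called 8 of the 36 genes (22.2%, against 11.5% of all tested genes), and 6 of them were also called against control.

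The 3 base assembly chaperones gave 1 call. Psmd9 stood at 48.1, 56.7 and 48.1 CPM in control and 63.0, 72.1 and 83.1 at 3 min, without overlap, and rose by 0.50 ± 0.14 (edgeR adjusted p = 0.0188). It was lost without control lot 1 (edgeR adjusted p = 0.0741), control lot 3 (0.128), 3 min lot 2 (0.0749) or 3 min lot 3 (0.191). Psmd9 lay between 49.8 and 76.9 CPM in the remaining groups. Psmd10, known as gankyrin, had changes of -0.32 to -0.16, and Psmd5 of -0.25 to 0.04, with no call.

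Between treatments few of these genes differed. From 30 s to 3 min none of the 36 was called by edgeR or DESeq2 (1.94% of all tested genes by edgeR, 0.476% higher and 1.46% lower), with 6 at an unadjusted edgeR p under 0.05. From 3 min to 30 min 2 were called lower, Psmb5 and Psma4 (5.56% against 4.03%, with 2.83% of all genes higher and 1.2% lower). Without 3 min lot 2 or 30 min lot 2 the count was 1. Without 3 min lot 1 or 30 min lot 3 it was 2, but as 1 lower and 1 higher: Psma4 was no longer called, and Psmd1 (0.31) or Psmb7 (1.36) was. Low trypsin against 3 min gave 0 calls with either tool (4.36% of all tested genes by edgeR, 3.78% higher and 0.576% lower), with 7 at an unadjusted edgeR p under 0.05. Without 3 min lot 1, or without low trypsin lot 3, the edgeR count was 1, Psmd1 (0.29 and 0.28). The cold-active protease against 3 min gave Psmd1 alone, higher (2.78% against 3.7%, with 2.84% of all genes higher and 0.864% lower). Without 3 min lot 2 or cold-active protease lot 1 there was none.

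Other genes of the pathway come from lists written beside the rule. Adrm1 and Sem1 encode the remaining subunits of the regulatory particle, a ubiquitin receptor and a small lid protein. Adrm1 stood at 61.0, 49.8 and 64.1 CPM in control, 31.7, 35.9 and 31.6 at 30 s, and 38.3, 32.0 and 41.0 at 30 min. Both treated groups lay below all controls. Adrm1 fell by 0.82 ± 0.16 at 30 s (edgeR adjusted p = 0.000123) and by 0.66 ± 0.16 at 30 min (0.00561), the latter lost without control lot 3 (0.0607) or 30 min lot 2 (0.0775). Sem1 stood at 338, 359 and 288 in control, 277, 245 and 259.7 at 30 s, 191, 238 and 239 at 3 min, and 445, 425 and 374 under low trypsin. It fell by 0.33 ± 0.08 at 30 s (edgeR adjusted p = 0.00171) and by 0.56 ± 0.08 at 3 min (3.52e-07), and rose by 0.34 ± 0.07 under low trypsin (0.00113). Its call at 30 s was lost without control lot 2 (0.0596), and that under low trypsin without control lot 3 (0.0609).

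Of 6 core and base assembly factors, Psmg4, a chaperone for the alpha ring, was the only one called. It stood at 77.7, 84.5 and 88.2 CPM in control, 54.3, 58.9 and 57.8 at 30 s, and 44.2, 44.8 and 39.5 at 3 min. It was lower than control in all 6 of those libraries. Psmg4 fell by 0.56 ± 0.11 at 30 s (edgeR adjusted p = 0.000401) and by 0.96 ± 0.13 at 3 min (5.84e-08). With the length trend removed, the first was -0.31 (edgeR adjusted p = 0.103). Pomp, which chaperones the beta ring, had changes of -0.22 to -0.03 and no call, though without control lot 3 it was called at 3 min (-0.27, edgeR adjusted p = 0.044).

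None of the 5 activators and inhibitor (Psme1 to Psme4 and Psmf1), the 3 attached enzymes (Usp14, Uchl5 and Ube3c) or the 4 tested muscle ubiquitin ligases was called against control by edgeR or DESeq2. At an unadjusted edgeR p under 0.05 the activators gave 2, 1, 2, 1 and 0 genes, the enzymes 0 throughout and the ligases 2, 2, 0, 0 and 0. The same held for Nfe2l1 and Nfe2l2, transcription factors that raise subunit genes when the proteasome is inhibited or under oxidative stress, and for Ddi2 and Ngly1, which process Nfe2l1. These gave 0, 1, 1, 0 and 0 genes at an unadjusted edgeR p under 0.05 and no DESeq2 call. Nfe2l1 changed by -0.01 to 0.17 and Nfe2l2 by -0.25 to -0.07.

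Among genes that encode ubiquitin, Ubb and Rps27a moved in opposite directions at 30 s. Ubb, a polyubiquitin gene, stood at 198, 191 and 214 CPM in control and 271, 272 and 233 at 30 s, without overlap, and rose by 0.37 ± 0.08 (edgeR adjusted p = 0.000894). Rps27a, which encodes ubiquitin fused to a ribosomal protein, stood at 505, 548 and 508 in control and 272, 282 and 293 at 30 s. It fell by 0.88 ± 0.06 at 30 s (edgeR adjusted p = 2.87e-16), by 0.70 ± 0.06 at 3 min (1.27e-12), by 0.48 ± 0.06 at 30 min (1.35e-07) and by 0.32 ± 0.06 under low trypsin (0.000194). Vcp, the unfoldase that delivers substrates to the proteasome, stood at 400.5, 421 and 403 in control and 524, 496 and 478 at 30 min and rose by 0.29 ± 0.06 (edgeR adjusted p = 0.000393). It was the 1 called gene of 8 shuttle and unfoldase genes.

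Complexes built in a similar way were set beside the proteasome. Of the 10 COP9 signalosome genes, whose subunits resemble those of the lid, Cops7a rose by 0.36 ± 0.08 at 30 s (edgeR adjusted p = 0.00125) and by 0.33 ± 0.08 under low trypsin (0.00461), the latter lost without control lot 2 (0.0611) or low trypsin lot 2 (0.0594). Cops9 fell by 0.62 ± 0.10 at 3 min (8.99e-06), a call lost with the length trend removed (0.262). Of the 8 genes of the CCT chaperonin, a stacked ring that folds proteins, Cct4 fell by 0.24 ± 0.06 at 30 s (edgeR adjusted p = 0.00844) and by 0.31 ± 0.06 under low trypsin (0.00086), the first lost without 30 s lot 1 (0.054). Without 30 min lot 1, Cct4 was also called at 30 min (-0.23, edgeR adjusted p = 0.0491). Cct7 fell by 0.22 ± 0.06 under low trypsin (0.0129), lost without control lot 1 (0.0532), control lot 2 (0.0517) or low trypsin lot 2 (0.171). In the order of treatments used above, medians of the 8 CCT genes were -0.05, -0.04, -0.08, -0.10 and -0.07. Of these genes 7, 7, 7, 8 and 7 lay below 0. Medians of the 10 COP9 genes were -0.02, -0.04, -0.03, -0.05 and 0.01, with 6, 7, 6, 6 and 3 below 0. Whether the proteasome differed from these complexes was not tested.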

How the data were processed

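Of the deposited tables, only the raw counts of each gene entered the analysis. Per the submitters' processing notes, the authors' tools included HISAT2 2.1.0, UMI-tools 1.0.1, DESeq2 1.28.1, Trim Galore 0.6.6, featureCounts 2.0.1 and cutadapt 2.6, and the build was GRCm38. Settings, strand and how multiply matching reads were handled are not given in the sources used here. Such choices bear on members with near-identical copies.

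All 18 libraries entered 1 fit in edgeR 4.0.16 (R 4.3.3) after filterByExpr by group, with TMM scaling and no covariate, followed by quasi-likelihood F tests. Calls used a Benjamini-Hochberg adjusted p under 0.05 over 10075 genes. DESeq2 1.42.0 was an alternative. The steps were tested on simulated data. The common biological coefficient of variation was 6.08%, and the 12 residual degrees of freedom set the precision. Libraries of a group differed by 1.43 to 2.65 in chi-square per degree of freedom, more than sampling noise.

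Lengths came from GENCODE M21. Copies were blastn matches of at least 95% identity over 200 bases. Motifs were searched in RefSeq upstream windows. Named genes were the members called in at least 1 comparison with control, up to 14, ordered by smallest adjusted p, and listed pathway genes where called, with Nfe2l1, Pomp and Ubb always. Some listed genes are not reported here. Members and lists were chosen with earlier results of these data known.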

Additional observations from a re-analysis of the deposited data

Results flagged for a closer look

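Differences between treatments were found for 3 proteasome genes by a test of the difference itself. Psmb5 was lower at 30 min than at 3 min by -0.72 ± 0.14 (SE) on the log2 scale (edgeR adjusted p = 0.000331), in all 3 libraries. Psma4 was lower at 30 min than at 3 min by -0.59 ± 0.17 (edgeR adjusted p = 0.0323), in all 3 libraries. That call was lost in 4 of the 6 omissions of a library. Without 3 min lot 2 the difference was -0.39 (edgeR adjusted p = 0.382). The Psma4 call was also lost in DESeq2, without the filter and in a fit of only these groups. Psmd1 was higher under the cold-active protease than at 3 min, by 0.30 ± 0.08 (edgeR adjusted p = 0.0133), and at 0.21 it did not pass without 3 min lot 2. Nor did it pass without cold-active protease lot 1.

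A signal also appeared outside the 39 genes, in the Psmb3 pseudogene copy Gm4950. It was above control at 30 s by 4.06 ± 0.54 (edgeR adjusted p = 6.78e-08), with 31, 31 and 33 counts against 2, 1 and 2. The fitted size depends on the prior count, since control counts are this low.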

How the results depend on the processing

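Each count of called genes and each median was recomputed under DESeq2, other scalings, other filters, a fit of only the 2 groups compared, a replicate block, removal of the length trend and omission of each library. The median over the 36 genes stayed below 0 in all of these, while the core median at 3 min turned from -0.08 to 0.03 with the length trend removed. Alternatives chosen after seeing the data were other subsets of the 39 genes, the addition of pseudogene counts and TMM-scaled shares. Of the 24 tested genes without a copy or an overlapping gene, 2 were called at 30 s (8.33%, against 6.94% of all tested genes). At 30 min there were 4 (16.7% against 4.68%), and under low trypsin 0 (5.19% of all tested genes). With only the 2 groups compared, the called genes of the 36 numbered 4 at 30 min against control and 1 at 30 min against 3 min. The latter count was also 1 under DESeq2 and without a filter, and 4 with the length trend removed, which gave 2 for the cold-active protease against 3 min. Medians moved by more than the spread between libraries at 30 s, to -0.0278 with the length trend removed and -0.0635 without Psmc3ip and the chaperones. They also did so at 30 s without control lot 2 (-0.0148) or control lot 3 (-0.0381). Under low trypsin the median moved to -0.0818 with the trend removed and to -0.088 without control lot 2. Under the cold-active protease it moved to -0.0909 without cold-active protease lot 1. Causes were not tested beyond what each construction shows. With each library left out in turn, calls ranged from 4 to 6 at 30 s, 0 to 2 at 3 min, 3 to 7 at 30 min, 0 to 1 under low trypsin and 0 to 1 under the cold-active protease. They ranged from 1 to 2 for 30 min against 3 min, 0 to 1 for low trypsin against 3 min, 0 to 1 for the cold-active protease against 3 min and 6 to 10 for the F test. Medians ranged from -0.0595 to -0.0148 at 30 s, -0.078 to -0.0463 at 3 min, -0.128 to -0.0837 at 30 min, -0.121 to -0.088 under low trypsin and -0.0909 to -0.0473 under the cold-active protease. Same-numbered lots did not deviate together (correlations of -0.06 to 0.07 over 27 pairs), and the replicate block gave 6, 3, 7, 1 and 1 calls against control, the counts of the fit without it. At 2.57 to 19.5 CPM, Psmb7 is limited by its few counts. Its control mean was 5.03 CPM, while those of the other beta ring genes in the same libraries ran from 61.8 (Psmb5) to 540 (Psmb4). Whether the low level of Psmb7 comes from the stretch shared with Nek6 was not tested.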
